A study of Mus musculus with 5 samples.

Results

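The promoters examined here were CpG-rich promoters of protein-coding genes that hold the canonical E-box, the palindromic hexamer CACGTG, close to the transcription start site (TSS). A promoter was CpG-rich if the 200 bp on either side of its TSS had a GC content of at least 55% and an observed/expected CpG ratio of at least 0.6. Of 22359 protein-coding promoters on mm9 (NCBIM37), 10110 met these limits, and 1219 of them (12.1%) held the E-box within the same 200 bp. The other 8891 CpG-rich promoters lacked it and served for comparison. No measured value entered this choice. The hexamer was rarer outside the class, in 5.95% of the other 12249 promoters.

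Binding of Pcgf6, a polycomb group ring finger protein of the polycomb repressive complex 1 (PRC1), was measured by ChIP-seq, in which DNA cross-linked to a protein is pulled down with an antibody and sequenced. All libraries came from CCE cells, an established line of mouse embryonic stem cells (ESCs), which were kept with LIF for fewer than 15 passages and fixed with disuccinimidyl glutarate and paraformaldehyde. There were 2 replicates with a Santa Cruz antibody (sc-160649), 2 replicates with an Abcam antibody (ab48010) and 1 input library without antibody, and no sample lacked Pcgf6. The replicates of each antibody were largely the same fragments, with 87.7% of Santa Cruz replicate 1 and 87.9% of Abcam replicate 1 found again in replicate 2 at a fixed shift. They were counted as 1 sample per antibody, so a spread between replicates does not exist, and every interval below is an exact 95% interval that covers counting error only. After joining there were 2580377 Santa Cruz, 3183437 Abcam and 22812058 input fragments.

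Pcgf6 is the ring finger subunit of a variant PRC1 that also contains the DNA-binding pairs Mga with Max and E2f6 with Tfdp1, and the protein L3mbtl2. Mga and Max bind DNA through basic helix-loop-helix leucine zipper domains that recognise the E-box, the same hexamer that Myc with Max, the clock factors and TFEB read. The CpG in the middle of the hexamer can be methylated, and CpG-rich promoters are as a rule free of DNA methylation in ESCs. The complex is known for keeping germ cell and meiosis genes silent in ESCs. This background prompted the comparison of promoters with and without the hexamer.

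The sequences below were read from mm9 on the strand of the gene (minus for Ddx4, Tex12, Gm129, Sycp1, Ptpdc1, Igf2r, Max and Cry1, plus for the rest). They are given because the comparison turns on these letters. The first and second sets show E-boxes of promoters with high ratios of ChIP to input, and the third shows promoters that were not called. Hormad1, in the first set, was called with Abcam only. Capitals mark the E-box. In the first set capitals also mark the E2F-type sequence GGCGGGAA, which was searched on both strands and is held by 81 promoters with the E-box and 579 without it. An E2F-type sequence may share its first base with the last base of an E-box. Each stretch of the first set ends at the base before the TSS and is 200 bases long, with Ddx4 at chr13:113442519-113442718, Tex12 at chr9:50369374-50369573, Hormad1 at chr3:95363400-95363599, and Gm129, which carries 3 E-boxes, at chr3:95686155-95686354.
Ddx4: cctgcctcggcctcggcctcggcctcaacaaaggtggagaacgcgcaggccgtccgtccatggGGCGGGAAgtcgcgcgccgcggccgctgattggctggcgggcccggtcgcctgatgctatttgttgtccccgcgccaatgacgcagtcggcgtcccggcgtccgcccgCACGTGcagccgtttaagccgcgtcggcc
Tex12: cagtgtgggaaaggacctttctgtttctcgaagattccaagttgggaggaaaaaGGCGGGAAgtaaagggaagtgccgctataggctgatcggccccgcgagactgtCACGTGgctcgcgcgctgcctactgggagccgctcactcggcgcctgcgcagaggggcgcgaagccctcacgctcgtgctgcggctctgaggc
Hormad1: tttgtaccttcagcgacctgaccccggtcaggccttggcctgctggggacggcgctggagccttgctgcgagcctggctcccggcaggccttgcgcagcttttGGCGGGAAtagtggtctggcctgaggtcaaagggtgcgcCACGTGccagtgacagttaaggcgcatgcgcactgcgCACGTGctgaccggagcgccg
Gm129: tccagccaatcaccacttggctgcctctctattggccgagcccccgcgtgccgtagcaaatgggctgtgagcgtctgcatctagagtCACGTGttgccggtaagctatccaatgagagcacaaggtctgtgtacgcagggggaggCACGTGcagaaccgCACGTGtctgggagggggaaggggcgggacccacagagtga

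The second set gives the E-box with 20 bases on either side for germ cell and other genes called with both antibodies, so that the flanking bases can be compared. Stk31 is at chr6:49345463-49345508, Mov10l1 at chr15:88813158-88813203, Sycp1 at chr3:102740092-102740137, Ptpdc1 at chr13:48721047-48721092 and the nearer E-box of Igf2r at chr17:12962554-12962599.
Stk31: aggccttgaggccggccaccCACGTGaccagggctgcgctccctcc
Mov10l1: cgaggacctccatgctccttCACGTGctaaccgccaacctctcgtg
Sycp1: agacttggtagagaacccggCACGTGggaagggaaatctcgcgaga
Ptpdc1: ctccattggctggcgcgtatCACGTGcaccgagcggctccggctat
Igf2r: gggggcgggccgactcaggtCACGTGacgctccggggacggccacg

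The third set shows promoters that hold the same hexamer and were not called, as a contrast. None of those printed holds the E2F-type sequence, so the sets do not compare called and uncalled promoters that hold it. Of the 81 promoters with both sequences, 69 were called with neither antibody. Ran, not printed here, is 1 of them, with ratios of 1.59 (Santa Cruz) and 1.15 (Abcam). Cdk4, a cell cycle kinase gene with 4 E-boxes in the 200 bases at chr10:126500390-126500589, is printed whole. Max, whose product is the partner of both Myc and Mga, is given with 12 bases on either side of the E-box at chr12:78063221-78063250. Per1 at chr11:68908549-68908594 and Cry1 at chr10:84647834-84647879, repressors of the circadian clock, are given with 20.
Cdk4: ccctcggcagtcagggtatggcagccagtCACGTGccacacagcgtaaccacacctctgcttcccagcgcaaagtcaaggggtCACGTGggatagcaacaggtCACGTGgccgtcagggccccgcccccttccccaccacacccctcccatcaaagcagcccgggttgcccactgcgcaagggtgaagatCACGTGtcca
Max: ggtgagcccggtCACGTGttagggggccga
Per1: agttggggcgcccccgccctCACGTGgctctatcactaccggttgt
Cry1: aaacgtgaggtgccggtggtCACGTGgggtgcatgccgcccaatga

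Promoters with the E-box gave more Pcgf6 ChIP fragments for their input than CpG-rich promoters without it. The measure was the number of fragments whose middle lay within 1 kb of the TSS, divided by the same number in the input, with both scaled by the library totals, so that 1 is the genome-wide level. Summed over the 1219 promoters, 7649 Santa Cruz and 10541 Abcam fragments against 62648 in the input gave ratios of 1.08 (interval, 1.05 to 1.11) and 1.21 (1.18 to 1.23). At the 8891 promoters without the E-box the ratios were 0.897 (0.888 to 0.905) and 0.990 (0.982 to 0.998). The ratio with the E-box was thus 1.20 times (1.17 to 1.23) that without it with the Santa Cruz and 1.22 times (1.19 to 1.24) with the Abcam antibody. The intervals of both groups did not overlap with either antibody, but neighbouring promoters and shared chromatin are not counted as error in them.

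The 4 ChIP libraries gave the same order when their deposited depth was summed in place of fragments. With the E-box, depth over input depth was 1.07 in Santa Cruz replicate 1, 1.08 in Santa Cruz replicate 2, 1.20 in Abcam replicate 1 and 1.21 in Abcam replicate 2. Without the E-box it was 0.897, 0.910, 0.990 and 1.0 in the same order. All 4 values with the E-box lay above all 4 without it. Since the replicates of an antibody share most fragments, these are 2 measurements and not 4. Both are divided by the same input library, so an error of the input enters both.

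The groups were alike in base composition and in input. The median GC content was 66.6% in both, and the median observed/expected CpG ratio was 0.858 with and 0.854 without the E-box. A promoter held a median of 52 input fragments in both groups, and means of 51.4 and 52.2. Within bins of GC content of 5 percentage points, starting at 55, 60, 65, 70 and 75%, the ratio with the E-box was 1.09, 1.25, 1.22, 1.17 and 1.28 times that without it with Santa Cruz. With Abcam it was 1.04, 1.29, 1.20, 1.24 and 1.30 times. The interval of the lowest bin reached from 0.973 to 1.11 with Abcam, and all other intervals of these bins lay above 1.

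The difference was a shift of many promoters together with a tail of high ones. The median ratio was 0.908 with the Santa Cruz and 1.02 with the Abcam antibody at promoters with the E-box, and 0.822 and 0.908 at those without it. With the E-box, 9.93% of promoters had a Santa Cruz ratio of at least 2 and 12.3% an Abcam ratio of at least 2, against 4.75% and 5.77% without it. A single promoter held a median of 5 Santa Cruz and 7 Abcam fragments in both groups, so the ratio of most single promoters is known only poorly. Without the promoters called with either antibody (below), the ratio with the E-box was 1.11 times (1.08 to 1.14) that without it with the Santa Cruz and 1.11 times (1.09 to 1.14) with the Abcam antibody.

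Around the TSS, promoters with the E-box had their highest ratio upstream, and the ratio of both groups dipped just before the TSS. In bins of 100 bp, the Abcam ratio with the E-box reached 1.48 (1.36 to 1.61) between 400 and 300 bp upstream of the TSS. The Santa Cruz ratio in the same bin was 1.31 (1.18 to 1.45). This bin lies outside the 200 bp on either side of the TSS that were searched for the E-box. In that bin the promoters without the E-box were at 1.06 (1.02 to 1.10) with Abcam and 0.955 (0.916 to 0.994) with Santa Cruz. In the last 100 bp before the TSS the ratio without the E-box was 0.639 (0.612 to 0.667) with the Santa Cruz and 0.834 (0.805 to 0.863) with the Abcam antibody, against 0.967 (0.878 to 1.06) and 1.25 (1.16 to 1.35) with it. Beyond 1 kb from the TSS the ratio per bin lay between 0.778 and 1.08 with Santa Cruz and between 0.849 and 1.16 with Abcam for promoters with the E-box, and the plot of the ratio by distance shows both the upstream maximum and the dip. Narrower windows accordingly gave a larger difference. Within 200 bp of the TSS the ratio with the E-box was 1.38 times that without it with the Santa Cruz and 1.42 times with the Abcam antibody, and within 2 kb 1.12 and 1.14 times. Measured from the centre of a single E-box (1073 promoters), the Santa Cruz ratio did not peak at the hexamer. It was 1.03 (0.927 to 1.14) in the 100 bp upstream of the centre and 1.17 (1.04 to 1.30) between 400 and 300 bp upstream. With Abcam these bins were at 1.34 (1.23 to 1.45) and 1.25 (1.13 to 1.38), with overlapping intervals. The Abcam ratio was thus highest at the hexamer, with 1.32 (1.22 to 1.44) in the 100 bp downstream of the centre.

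**Figure D1:**
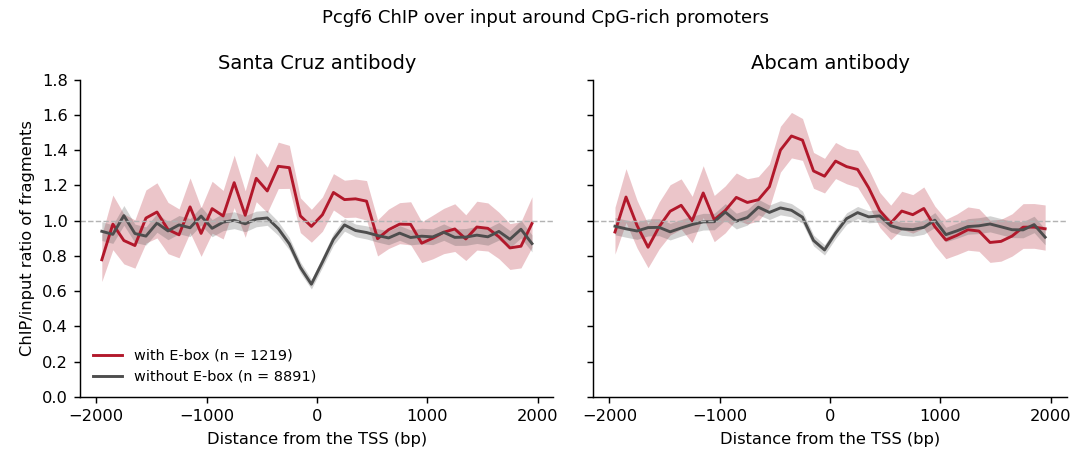
Ratio of ChIP to input fragments, scaled by library totals, in 100-bp bins by distance from the TSS (bp) for 1219 CpG-rich promoters with the E-box and 8891 without it, Santa Cruz on the left and Abcam on the right; lines are ratios and bands exact 95% intervals of counting error. With the E-box the Abcam line reaches 1.48 in the bin from 400 to 300 bp upstream. Without it both lines have their minimum just before the TSS, where the lines with it dip as well.

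The difference was seen on most chromosomes. With each antibody the ratio with the E-box was above that without it on 19 of 20 chromosomes, each with 28 to 110 promoters with the E-box. The median over chromosomes was 1.17 times with the Santa Cruz and 1.22 times with the Abcam antibody. The highest values were on chromosome 14, at 1.44 (1.26 to 1.65) and 1.61 (1.44 to 1.80) times. The X chromosome, with 28 such promoters, was the exception at 0.810 (0.609 to 1.06) and 0.839 (0.652 to 1.07) times, and its intervals reach above 1. The intervals lay wholly above 1 on 15 chromosomes with the Santa Cruz and 15 with the Abcam antibody, and on none wholly below it.

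Over all promoters with the E-box, more E-boxes went with a higher ratio. Among those not called, however, promoters with 3 or more E-boxes had the lowest ratio. Promoters with 1 E-box (1073 of them) had a ratio of 1.05 (1.02 to 1.08) with the Santa Cruz and 1.18 (1.15 to 1.20) with the Abcam antibody. The 122 promoters with 2 E-boxes were at 1.27 (1.18 to 1.36) and 1.36 (1.28 to 1.44). The 24 with 3 or more were at 1.40 (1.21 to 1.62) and 1.63 (1.44 to 1.85). After the called promoters were left out, the values for 1, 2 and 3 or more E-boxes were 0.950, 1.03 and 0.828 with Santa Cruz and 1.04, 1.08 and 0.963 with Abcam. The last rest on 19 promoters, with intervals from 0.668 to 1.02 and from 0.804 to 1.15. Cdk4, with 4 E-boxes, shows that a high number did not by itself go with a high ratio. It gave 5 and 4 fragments in Santa Cruz replicates 1 and 2, 8 and 9 in those of Abcam and 71 for input, a joined ratio of 0.872 (0.338 to 1.89) with the Santa Cruz and 1.01 (0.464 to 1.97) with the Abcam antibody.

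The ratio varied with the position of the E-box without a steady trend. For promoters with a single E-box the Abcam ratio was highest for the hexamer centred in the 100 to 150 bp downstream of the TSS, at 1.26 (1.15 to 1.37), and in the last 50 bp upstream, at 1.25 (1.20 to 1.31). With Santa Cruz the highest position was the last 50 bp upstream as well, at 1.11 (1.06 to 1.17). It was lowest with Santa Cruz in the first 50 bp downstream, at 0.952 (0.885 to 1.02), and with Abcam at the far upstream end, from 200 to 150 bp, at 1.08 (1.01 to 1.16). The intervals of most neighbouring positions overlapped, as the plot by number and position of E-boxes shows.

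**Figure D2:**
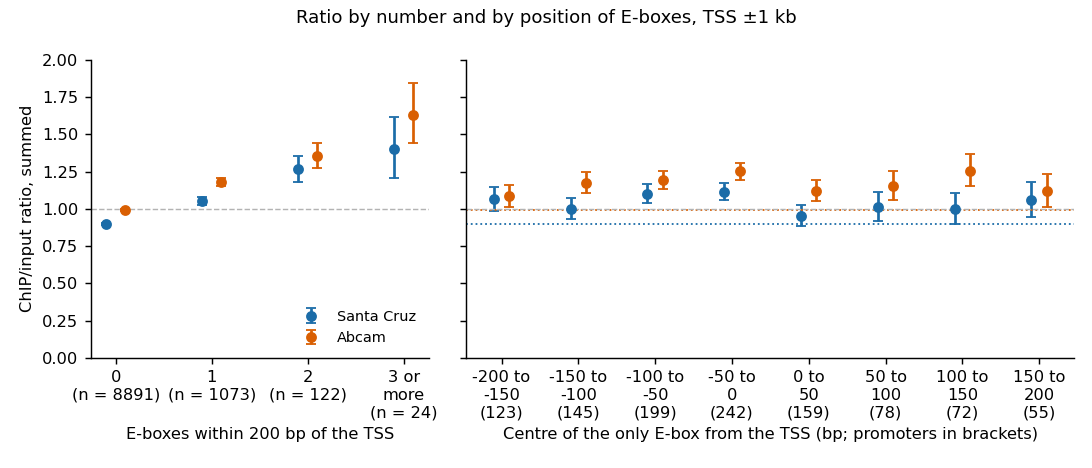
Summed ratio of ChIP to input fragments within 1 kb of the TSS, Santa Cruz in blue and Abcam in orange, by number of E-boxes (left, number of promoters in brackets) and by the position of a single E-box in 50-bp steps from the TSS (right); bars are exact 95% intervals of counting error and dotted lines the ratio of promoters without the E-box. The ratio is 0.897 and 0.990 with no E-box and 1.40 and 1.63 with 3 or more, called promoters included.

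Promoters with different bases next to a single E-box had different ratios. An 8-base sequence and its reverse complement were taken as the same, which gave 10 forms, and the 5 described here were chosen after their values were seen. With CCACGTGC (151 promoters) the ratio was 1.23 (1.15 to 1.31) with the Santa Cruz and 1.29 (1.22 to 1.37) with the Abcam antibody, and with CCACGTGA (210 promoters) 1.14 (1.08 to 1.20) and 1.26 (1.20 to 1.32). ACACGTGC (63 promoters) was at 1.13 (1.02 to 1.25) and 1.34 (1.23 to 1.47). TCACGTGA, the form in 144 promoters, was at 0.935 (0.866 to 1.01) and 0.986 (0.921 to 1.05), and ACACGTGA (73 promoters) at 0.842 (0.754 to 0.938) and 0.993 (0.905 to 1.09). For these last 2 forms the intervals held the level of promoters without the E-box with both antibodies, and for CCACGTGC, CCACGTGA and ACACGTGC they lay above it.

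Among short palindromes of the same composition, CACGTG had the highest ratio. All 8 palindromic hexamers with CG in the middle, 1 C/G pair and 1 A/T pair were compared among the CpG-rich promoters. With Abcam, CACGTG was at 1.21, followed by CTCGAG (held by 9.75% of the class) at 1.08 (1.05 to 1.11) and ACCGGT (5.45%) and TGCGCA (18.9%), both at 1.07. Of the other 4, AGCGCT (15.2%) was at 1.03, GACGTC (10.5%) at 0.997, GTCGAC (2.89%) at 0.991 and TCCGGA (15.5%) at 0.994. With Santa Cruz, CACGTG was at 1.08 and the other 7 between 0.901 and 0.974. Once promoters that also hold CACGTG were left out, CTCGAG fell to 1.04 (1.01 to 1.07) with Abcam and 0.914 with Santa Cruz. ACCGGT was then at 1.05 (1.02 to 1.09) with Abcam and 0.960 with Santa Cruz, and TGCGCA at 1.04 (1.02 to 1.06) and 0.923. The variant E-boxes, in promoters without the canonical one and searched on both strands, were at 0.952 (CACGCG, 26.4% of the class) and 0.968 (CATGTG, 5.71%) with Santa Cruz and at 1.05 and 1.02 with Abcam. Outside CpG-rich promoters the hexamer made no difference of this size. There, the ratio of 729 promoters with the E-box was 0.998 times (0.959 to 1.04) that of the promoters without it with the Santa Cruz and 1.01 times (0.976 to 1.05) with the Abcam antibody.

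Promoters that held both the E-box and the E2F-type sequence had the highest ratios. The 81 promoters with both were at 1.44 (1.32 to 1.56) with the Santa Cruz and 1.72 (1.6 to 1.85) with the Abcam antibody. The 1138 with the E-box alone were at 1.05 (1.03 to 1.08) and 1.17 (1.15 to 1.20), and the 579 with the E2F-type sequence alone at 0.938 (0.904 to 0.972) and 1.03 (1.0 to 1.07). Those with neither were at 0.894 and 0.987. Where the E2F-type sequence was present, the E-box went with a ratio 1.53 times (1.40 to 1.68) and 1.67 times (1.54 to 1.80) as high, against 1.18 times (1.15 to 1.21) and 1.19 times (1.16 to 1.21) where it was absent. Without the called promoters these were 1.19 (1.06 to 1.33) and 1.24 (1.13 to 1.37) where it was present, against 1.11 (1.08 to 1.14) and 1.11 (1.08 to 1.13), and the intervals of the 2 classes overlapped.

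**Figure D3:**
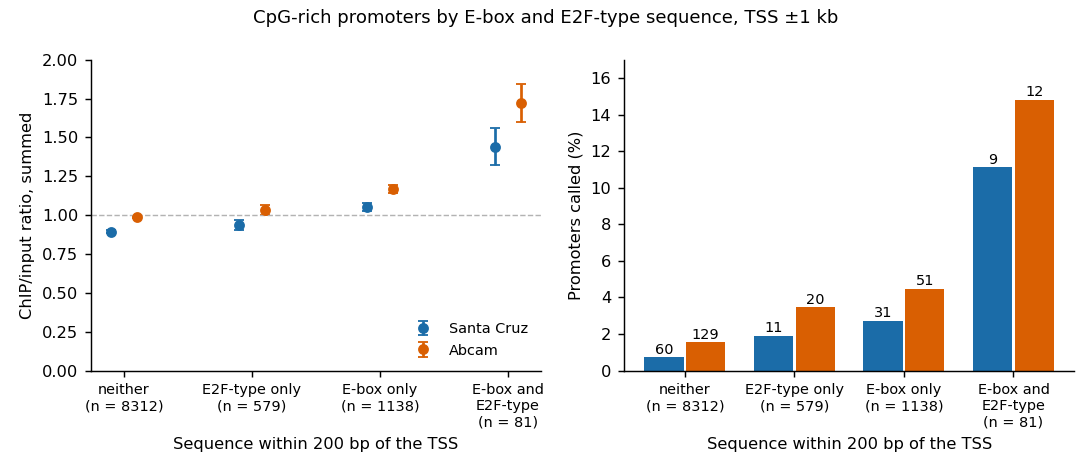
CpG-rich promoters grouped by E-box and E2F-type sequence within 200 bp of the TSS, with Santa Cruz in blue and Abcam in orange: summed ratio of ChIP to input fragments within 1 kb with exact 95% intervals of counting error (left), and percent of promoters called, with their number above each bar (right). The 81 promoters with both sequences are highest, at ratios of 1.44 and 1.72, with 9 and 12 called.

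Single promoters were then called by an exact binomial test, one-sided, of ChIP against input fragments, with Benjamini-Hochberg adjustment over all 22359 promoters and a threshold of 0.05. Such a test compares the fragments of 2 libraries, not conditions. With the E-box, 40 promoters (3.28%) were called with Santa Cruz, 63 (5.17%) with Abcam and 39 (3.20%) with both, while 0.635%, 1.19% and 0.528% of all promoters were called. Without it, 71 (0.799%), 149 (1.68%) and 54 (0.607%) of the CpG-rich promoters were called. The promoters with the E-box made up 33.1% of all 118 promoters called with both antibodies and 39 of the 40 called with Santa Cruz were called with Abcam too. Both antibodies were tested against the same input library, so their calls are not independent of each other. The lowest ratio called among them was 2.78 with the Santa Cruz and 2.48 with the Abcam antibody, and which ratio can be called depends on the input fragments of each promoter.

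The 39 promoters called with both antibodies lay at 37 separate loci on 17 chromosomes. Of them, 10 (25.6%) held 2 or more E-boxes and 9 (23.1%) an E2F-type sequence, against 11.1% and 5.97% of the 1155 called with neither. In 31 of the 39 (79.5%) every E-box lay upstream of the TSS, against 63.8% of those called with neither. Among the 24 called with Abcam only, 29.2% held 2 or more E-boxes and 12.5% an E2F-type sequence. In 62.5% of these 24 every E-box lay upstream. The 39 called with both had a median input of 48 fragments, against 53 for those called with neither. None was on the X chromosome. The plot of both antibodies shows them as 1 group at the upper right, continuous with the remaining promoters. Fam134a and 1810031K17Rik, a head-to-head gene pair on chromosome 1, share their 2 E-boxes, have overlapping windows and are 1 locus.

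**Figure D4:**
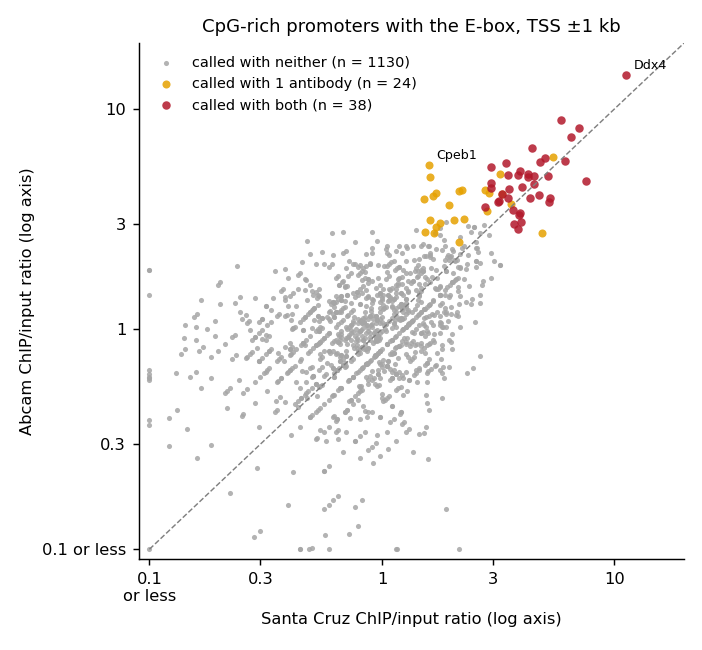
ChIP/input ratio of fragments (TSS ±1 kb) with Santa Cruz (horizontal, log axis) and Abcam (vertical, log axis) for the 1192 promoters with the E-box that have at least 10 input fragments; values of 0.1 or less are drawn at 0.1 and the dashed line marks equal ratios. The 38 promoters called with both antibodies (red) lie at the upper right with Ddx4 at 11.2 and 14.3, and the 24 called with 1 antibody (yellow) lie mostly on the Abcam side.

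Ddx4, the germ cell RNA helicase gene also known as Vasa, had the largest ratio of the promoters with at least 10 input fragments that were called with both antibodies. Its TSS is on the minus strand of chromosome 13 at 113442518, with the E-box centred 26.5 bp upstream and 2 E2F-type sequences, 1 of them in the stretch printed above. The 2 Santa Cruz replicates held 29 and 30 fragments, those with Abcam 39 and 42, and the input 26. All 4 ChIP libraries were thus above the input in number of fragments, although each is far smaller than the input library. The joined counts of 33 and 52 gave ratios of 11.2 (6.51 to 19.5) with the Santa Cruz and 14.3 (8.79 to 23.9) with the Abcam antibody (exact binomial test, one-sided, p = 6.77e-15 and 7.53e-26 after Benjamini-Hochberg adjustment).

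Of a list of 33 germ cell and meiosis genes, 12 had a CpG-rich promoter with the E-box. Of these 12, 7 were called with Santa Cruz, 9 with Abcam and 7 with both, against 3.28%, 5.17% and 3.20% of all promoters with the E-box and 0.635%, 1.19% and 0.528% of all promoters. Their median ratios were 3.74 and 4.05, against medians of 0.829 and 0.896 over all promoters. The list holds genes seen in earlier results of these data, so its counts are a description. A further 14 genes of the list had a CpG-rich promoter without the hexamer, and 5 of these were called with both, with medians of 2.17 and 3.57. Calls in this list thus occurred both with and without the hexamer.

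Genes of the piRNA pathway, which silences transposons in the germ line, were among those called. Stk31, a Tudor domain gene of the germ line, had 27 fragments in each Santa Cruz replicate, 41 and 40 for Abcam and 45 in the input. Its ratios were 6.48 (4.01 to 10.4) and 7.48 (4.87 to 11.5), with adjusted p of 1.57e-10 and 1.98e-16 (same exact test). Mov10l1, an RNA helicase gene needed to make piRNAs, had 26 and 25 fragments, 21 and 21, and 35 in the same order, so that the Santa Cruz value was the higher one. Its ratios were 7.58 (4.49 to 12.7) and 4.71 (2.66 to 8.20), and the antibodies did not differ past the threshold there (two-sided exact binomial p = 0.0971, adjusted p = 1). Tdrd1, whose product binds Piwi proteins, had an E-box 8.5 bp upstream of its TSS and ratios of 5.26 (3.07 to 8.84) and 3.92 (2.25 to 6.68). Piwil2, a Piwi gene with its E-box 140.5 bp downstream of the TSS, was called with Abcam at 4.17 (2.44 to 6.98) and had a Santa Cruz ratio of 2.88 (1.45 to 5.36, exact binomial adjusted p = 0.151). Tdrkh, which lacks the E-box, had 33 Santa Cruz and 54 Abcam fragments against 40 in the input, which gave ratios of 7.29 and 9.67, as high as those of the genes with it.

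Other called genes of the list act on meiotic chromosomes or in germ cell metabolism. Sycp1, the transverse filament of the synaptonemal complex, had 20 and 21 Santa Cruz fragments, 28 and 28 Abcam fragments and 48 in the input, which gave ratios of 4.24 (2.46 to 7.10) and 5.08 (3.17 to 8.04). Stag3, a cohesin subunit of meiosis with its E-box 101.5 bp downstream of the TSS, had 30 and 30, 26 and 29, and 59, ratios of 5.24 (3.35 to 8.10) and 3.77 (2.36 to 5.91). Both were called with both antibodies. Hormad1, a protein of the meiotic chromosome axis with 2 E-boxes, had 11 and 14, 21 and 23, and 41. It was called with Abcam at 5.07 (3.04 to 8.36), and its Santa Cruz ratio of 3.23 (1.66 to 5.97) stood just outside the threshold (one-sided exact binomial test, adjusted p = 0.0556). Slc25a31, the ADP/ATP carrier of male germ cells, was just inside it, at 3.20 (1.72 to 5.67, same exact test, adjusted p = 0.0278) with the Santa Cruz and 3.81 (2.25 to 6.32) with the Abcam antibody. Its Santa Cruz call was lost without replicate 1 (ratio 2.74, adjusted p = 0.271) and without replicate 2 (2.97, 0.141) in the same exact test. Within 200 bp of the TSS the Santa Cruz calls of Stk31, Sycp1 and Slc25a31 and the Abcam calls of Mov10l1, Stag3 and Piwil2 were lost, at ratios between 3.34 and 5.44.

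Of the 3 germ cell genes of the list that were not called, which are named here to complete it, Sycp3, an axial element gene with 2 E-boxes, had ratios of 2.55 with the Santa Cruz and 2.48 with the Abcam antibody. Brdt, a bromodomain gene of the testis, was at 1.26 and 0.877, and Fkbp6, an immunophilin gene of the germ line with 2 E-boxes, at 0.465 and 1.13. These promoters rest on 38 to 52 input fragments, close to the median of the group.

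Among the promoters with the largest ratios, Gm4969 and Tex12 are meiosis genes outside the list, which was noticed after their values were seen. Gm4969, listed in RefSeq as Bhmg1 and Meiosin, a factor of meiotic entry, had 36 and 35 fragments in Santa Cruz replicates 1 and 2, 52 and 49 in those of Abcam and 54 for input. The ratios of 7.04 (4.60 to 10.7) and 8.23 (5.62 to 12.1) were called with both antibodies, with adjusted p of 6.85e-15 and 1.95e-23 (same exact test). Tex12, a central element gene of the synaptonemal complex, had 18 and 19, 28 and 28, and 37, ratios of 5.02 (2.79 to 8.80) and 6.0 (3.60 to 9.95). Ddx4, Gm4969 and Tex12 each hold an E2F-type sequence as well as the E-box. Stk31, Ptpdc1, Gm129, Akap11, Eif5a2, Mov10l1 and Igf2r, also among the largest ratios, lack it. Of the 39 promoters called with both antibodies, 9 hold it and 30 do not.

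The other promoters with the largest ratios belong to genes of varied function. Gm129, listed in RefSeq as Ciart and Chrono, is a repressor of the circadian clock and holds 3 E-boxes within 110.5 bp of its TSS. It had 35 and 34 Santa Cruz fragments, 41 and 43 Abcam fragments and 59 in the input, which gave ratios of 6.14 (4.02 to 9.31) and 5.83 (3.90 to 8.68). Ptpdc1, a protein phosphatase gene, had 21 and 25, 42 and 46, and 42, ratios of 5.89 (3.52 to 9.73) and 8.87 (5.79 to 13.7). Igf2r, the imprinted receptor for IGF2 and mannose 6-phosphate, holds 2 E-boxes and was at 4.51 (2.67 to 7.45) and 4.97 (3.11 to 7.86). Eif5a2, a form of the translation factor eIF5A with 2 E-boxes, was at 4.80 (2.83 to 7.99) and 5.76 (3.64 to 9.08), and Akap11, an anchor of protein kinase A with 2 E-boxes, at 5.16 (2.86 to 9.08) and 4.98 (2.86 to 8.52). All 5 of these genes were called with both antibodies. Within 200 bp of the TSS, however, Gm129 (ratios 3.79 and 3.07) and Akap11 (5.89 and 6.37) were called with neither. Fewer fragments are counted in this window. Both ratios of Gm129 were also lower in it than within 1 kb, and both of Akap11 were higher. Igf2r (5.63) and Eif5a2 (4.82) lost the Santa Cruz call there, and of the 5 genes Ptpdc1 kept both. The highest ratios of all, 26.5 and 21.5, were at 2610042L04Rik on chromosome 14, but they rest on 6 fragments with each antibody and 2 in the input, with intervals from 4.74 to 269 and from 3.84 to 218. The Santa Cruz call there was lost without either replicate, and the Abcam call without replicate 1.

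Several genes of DNA repair were called with both antibodies, which was noticed after their values were seen. Ercc6, which acts in transcription-coupled repair, was at 4.02 with the Santa Cruz and 4.40 with the Abcam antibody. Rad50, a subunit of the break-sensing Mre11 complex whose promoter also holds an E2F-type sequence, was at 3.50 and 5.0. Fancf, of the Fanconi anaemia core complex, was at 3.95 and 3.05. No list of repair genes was tested, so their share among the called promoters has no background here.

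Some promoters were called with 1 antibody only. The only one called with Santa Cruz alone was Hexa, the alpha subunit of lysosomal hexosaminidase, with E-boxes 32.5 bp upstream and 16.5 bp downstream of the TSS. It had 22 and 23 Santa Cruz fragments, 16 and 16 Abcam fragments and 47 in the input, which gave ratios of 4.89 (2.91 to 8.06) and 2.74 (1.50 to 4.82), and its Abcam adjusted p of 0.0510 in the one-sided exact binomial test missed the threshold narrowly. A further 24 were called with Abcam alone. Cpeb1, an RNA-binding regulator of polyadenylation in oocytes, differed most, with 9 and 6 Santa Cruz fragments against 33 and 31 Abcam fragments and 50 in the input, which gave ratios of 1.59 (0.688 to 3.27) and 5.59 (3.58 to 8.67). Gpr180 was at 1.61 (0.654 to 3.45) and 4.89 (2.97 to 7.95), and Lrrc58 at 2.21 (1.10 to 4.12) and 4.27 (2.65 to 6.79). Within 200 bp of the TSS the calls of Hexa, Cpeb1, Gpr180 and Lrrc58 were all lost, at ratios of 3.12, 2.61, 6.14 and 3.31.

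The difference between the antibodies itself was tested as well. Of the 1219 promoters with the E-box, 51 had an unadjusted p under 0.05 and none an adjusted p under 0.05 in a two-sided exact binomial test of Abcam against Santa Cruz fragments. The smallest p was at Cpeb1, at 0.000218 (adjusted p = 0.687, same exact test). A call with 1 antibody alone therefore does not show that the antibodies differed there. Fragments at the very same position with both antibodies made up 4.63% of the Santa Cruz and 3.19% of the Abcam fragments at the 39 promoters called with both, against 2.02% and 1.47% at those called with neither and 2.19% and 1.78% in the whole genome. Their part in the calls was measured by leaving these positions out, which left 38 promoters called with Santa Cruz, 64 with Abcam and 37 with both.

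**Figure D5:**
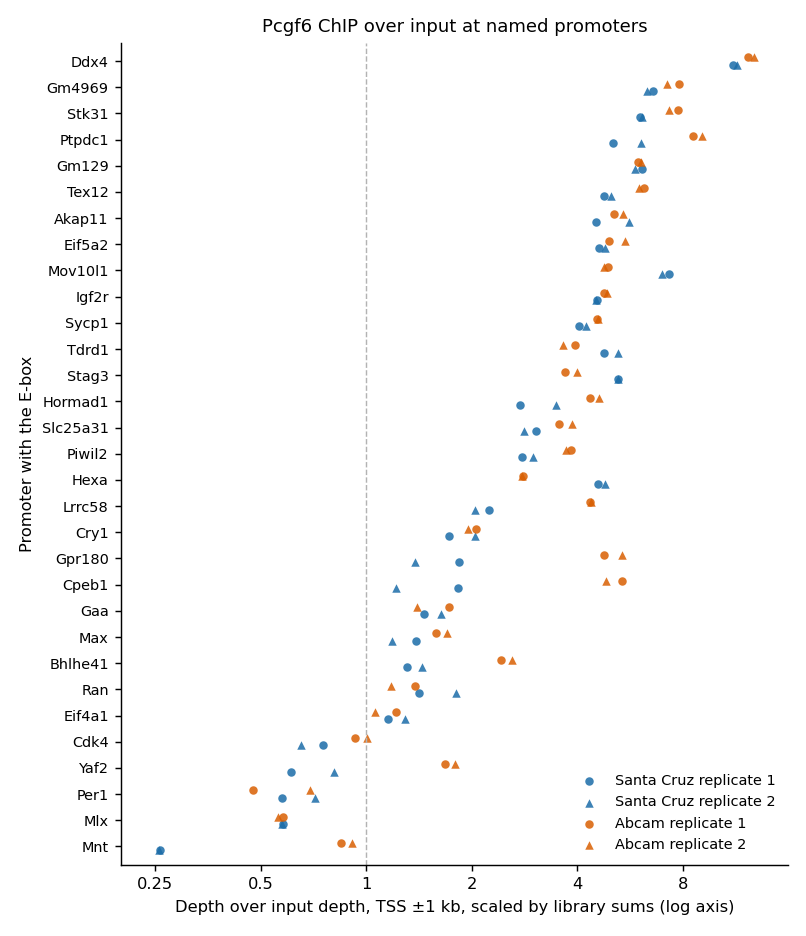
Depth over input depth within 1 kb of the TSS, scaled by the library sums (horizontal, log axis), at 31 named promoters with the E-box and at least 10 input fragments, for each replicate of Santa Cruz (blue) and Abcam (orange). Genes are ordered by the lower ratio of both antibodies, Ddx4 is highest in all 4 libraries, and Per1, Mlx and Mnt lie below 1 in all 4.

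The E-box is also read by other factors, and lists of their target genes were examined. Of 30 well-known target genes of Myc, 10 had a CpG-rich promoter with the E-box and none was called (one-sided exact binomial test), which is near the 3.28% and 5.17% called over all promoters with the E-box, with median ratios of 1.04 with the Santa Cruz and 1.03 with the Abcam antibody. Ran, the GTPase of nuclear transport, had the highest value in the lower of both antibodies, at 1.59 (0.688 to 3.27) and 1.15 (0.469 to 2.44). Eif4a1, a helicase of translation initiation, was at 1.30 (0.597 to 2.54) and 1.05 (0.484 to 2.06).

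Of 14 circadian clock genes, 3 had a CpG-rich promoter with the E-box, and none was called, too few genes to be read against the same shares. Cry1 had 10 and 12 fragments in Santa Cruz replicates 1 and 2, 16 and 15 in those of Abcam and 59 for input, ratios of 2.10 (1.08 to 3.80) and 2.06 (1.13 to 3.59), with adjusted p of 0.626 and 0.346 in the one-sided exact binomial test. Bhlhe41, a repressor that itself binds E-boxes, was at 1.26 (0.552 to 2.55) and 2.39 (1.38 to 3.97). Per1 was at 0.623 (0.196 to 1.52) and 0.606 (0.215 to 1.38). The clock repressor Gm129 described above was not in this list.

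Of 35 lysosome and autophagy genes, many of which TFEB activates through the E-box, 17 had a CpG-rich promoter with the hexamer. Hexa was called with Santa Cruz and none with Abcam, against the same shares of 3.28% and 5.17%, and the median ratios were 1.13 with the Santa Cruz and 1.19 with the Abcam antibody. Gaa, the acid alpha-glucosidase, was at 1.40 (0.607 to 2.84) and 1.51 (0.737 to 2.84). With both antibodies 12 of the 17 ratios were above 1, against 43.2% and 50.6% of all promoters with the E-box and 36.0% and 42.3% of the CpG-rich promoters without it.

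A few genes of the complex and of the Myc and Max network held the hexamer. Of 15 subunit genes of the Pcgf6 complex, Max and Yaf2 held it. Max had 7 and 6 fragments in Santa Cruz replicates 1 and 2, 10 and 11 in those of Abcam and 52 for input, ratios of 1.36 (0.558 to 2.88) and 1.65 (0.803 to 3.14). Yaf2, whose product binds the Ring1 proteins, was at 0.693 (0.182 to 1.89) and 1.55 (0.726 to 3.0). Neither was called, which 2 genes cannot set apart from the 3.20% of promoters with the E-box called with both antibodies. Of the 13 subunit genes without the E-box 4 were called with both, against 0.607% of all CpG-rich promoters without it. Of the network genes, Mlx was at 0.663 (0.236 to 1.51) and 0.537 (0.192 to 1.22), and Mnt, a partner of Max that opposes Myc, had 2 fragments in both Santa Cruz replicates against 90 in the input, a ratio of 0.196 (0.0234 to 0.731) with the Santa Cruz and 0.796 (0.369 to 1.53) with the Abcam antibody. The Santa Cruz interval of Mnt lay below 1.

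A CpG-rich promoter without the E-box reached ratios far above those of most promoters with it, whose medians were 0.908 with Santa Cruz and 1.02 with Abcam. Tdrkh, described above, was among the 3 highest that were called with both antibodies, at 7.29 (4.46 to 11.9) and 9.67 (6.31 to 14.9). Within 200 bp of the TSS its Santa Cruz call was lost, at a ratio of 5.44 (one-sided exact binomial test, adjusted p = 0.198). Its Abcam call was kept there, at 10.5.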

How the data were processed

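ChIP-seq depth was analysed for 5 libraries of CCE cells (1 input, 2 Santa Cruz, 2 Abcam). The files the authors deposited hold coverage as signal on mm9, counting at each position the reads that cover it after extension to 300 bp, unscaled. The submitters' processing notes name Bowtie 0.1.2.7, and its parameters and any removal of duplicates are not given in the sources used here. Each fragment was recovered from the steps of the depth, and fragments shared by the replicates of an antibody (at a shift of 1 or 15 positions) were counted once, since 87.7% and 87.9% of replicate 1 recurred in replicate 2. In the input, unmatched depth steps or fragment ends numbered 2.99% of the recovered fragments, against 0.297% to 0.368% in the ChIP libraries. Samples were grouped by antibody from the labels.

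For each protein-coding gene of GENCODE vM1 (NCBIM37) the TSS shared by most coding transcripts was taken. Fragments with their middle within 1 kb were divided by the input fragments after scaling by library totals, with exact 95% Clopper-Pearson intervals. Ratios between groups carry exact conditional odds-ratio intervals. Promoters were called by an exact binomial test (one-sided) adjusted after Benjamini and Hochberg over 22359 promoters (threshold 0.05), and antibodies compared by a two-sided one. A median CpG-rich promoter, with or without the E-box, held 52 input, 5 Santa Cruz and 7 Abcam fragments, which limits single promoters to large differences. Over all promoters the medians were 43, 4 and 5. There is 1 input library, so p-values measure counting error between libraries only.

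The text names up to 12 promoters called with both antibodies with the largest lower ratio, up to 4 called with 1 antibody only with the smallest adjusted p, members of 6 gene lists that were called or among the 3 highest, and the 3 highest without the E-box. Some promoters that this rule selects are not reported here. Members and lists were chosen with earlier results of these data known. Alternatives changed the window, scaling, replicates, input filter, class limits, E-box distance and TSS, and were set out beforehand except 2, which were added after seeing the data (1 fragment per position, and no positions shared by the antibodies). The scripts, which were tested on simulated data, ran in Python 3.11.15 with pysam 0.24.0, scipy 1.17.1, numba 0.67.0, numpy 2.4.6, matplotlib 3.10.9 and pandas 2.3.3.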

Additional observations from a re-analysis of the deposited data

How the results depend on the processing

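The ratio of promoters with the E-box over those without it kept its direction with both antibodies in all 19 alternatives, ranging over 1.11 to 1.38 (Santa Cruz) and 1.11 to 1.42 (Abcam). It was 1.38 and 1.42 within 200 bp of the TSS, 1.30 and 1.32 within 500 bp and 1.12 and 1.14 within 2 kb (Santa Cruz, then Abcam), and 1.11 with both once called promoters were left out. With Abcam it was 1.19 for an E-box within 500 bp and 1.26 for a GC content of 60% and an observed/expected ratio of 0.75. Without replicate 1 or 2 it was 1.19 in both cases with Santa Cruz and 1.21 to 1.22 with Abcam. Calls among promoters with the E-box were 32 to 36, 59 to 60 and 31 to 34 (Santa Cruz, Abcam, both) without replicate 1 or 2. They were 15, 34 and 12 within 200 bp, where fewer fragments are counted and the ratios of some promoters, such as Gm129, were lower. With all deposited fragments of both replicates, which counts the same fragments again, the calls were 70 and 120. With an E-box within 500 bp, which takes in more promoters, 95 were called with Abcam. Of 74 values of named promoters, 20 lost and 1 gained the call within 200 bp. Without replicate 1, 3 were lost, and without replicate 2, 2 were. The remaining alternatives changed the call of at most 7 each. No called ratio fell below 1, but some ratios that were not called crossed it, mostly with another window, such as Max (0.737 and 0.597 within 500 bp), Per1 (1.26 and 1.54 within 200 bp) and Eif4a1 (0.966 and 0.723 within 2 kb). No paired analysis was possible because the replicates of an antibody are largely the same fragments and no result comes from a fit over samples. Depth limits single promoters, and counting intervals leave out differences between cultures, which 1 input library and repeated fragments cannot show.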
